A study of Mus musculus with 20 samples.

Results

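The Fos and Jun families are the genes of AP-1, a transcription factor built from pairs of proteins. The 7 genes *Fos*, *Fosb*, *Fosl1*, *Fosl2*, *Jun*, *Junb* and *Jund* were taken by name from the annotation of the arrays, as every probe that is not a control and that carries one of these gene names. They are 7 of the 30222 gene names on the array and are read by 8 of its 39429 probes and 17 of its 43020 spots that are not controls. *Fos* was printed 10 times, *Fosl2* had 2 probes, and each of the others had 1 probe in 1 spot.

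RNA came from neurons of dorsal root ganglia (DRG) of NIH Swiss mouse embryos at E13.5, grown in culture and kept overnight in medium without serum before the experiment, also in the unstimulated controls. The growth protocol in the labels names the spinal cord as the tissue that was dissociated, and the cell type in the labels is DRG neurons. Each condition held 4 samples on 2 arrays with 2 colours: unstimulated neurons, and neurons driven by 0.2 ms pulses of 6 V to fire 18 action potentials per min (18/1) or 90 action potentials per 5 min (90/5), for 2 hr or for 5 hr. Both patterns therefore give the same mean rate of firing. The study's methods name the samples as biological replicates and give 5 pooled cultures per condition. Which cultures went into which sample is not given in the sources used here, so p-values measure the spread between these 4 samples, part of which may be technical.

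There were 3 slides for the 10 arrays. Unstimulated (arrays 1 and 2) and 18/1 2 hr samples (arrays 3 and 4) were on slide 1, 18/1 5 hr (arrays 5 and 6) and 90/5 2 hr samples (arrays 7 and 8) on slide 2, and 90/5 5 hr samples (arrays 9 and 10) on slide 3. Slide and condition cannot be told apart except between 18/1 2 hr and unstimulated and between 90/5 2 hr and 18/1 5 hr. Slide 2 stood apart: 45 to 14642 spots per sample were marked non-uniform, against 6 to 36 on slide 1 and 37 to 85 on slide 3, and the median spot was 3.64 to 10.4 times its background, against 2.27 to 2.94 and 2.66 to 4.91 times. All 14 marker genes of sensory neurons were well above background in all 20 samples. The same held for 6 of 10 markers of Schwann or satellite glia, 6 of 7 of fibroblasts, 4 of 6 of microglia or macrophages, 1 of 5 of spinal motor neurons and 1 of 6 of astrocytes or oligodendrocytes, so cells other than neurons contributed RNA. At 18/1 5 hr 3 of the 6 marker sets had summed signals above those of all unstimulated samples: fibroblast (68138 to 77967 against 18090 to 46057), spinal motor neuron (7431 to 9797 against 3877 to 4860) and astrocyte or oligodendrocyte (1749 to 5290 against 944 to 1135). The other 3 sets overlapped. A summed signal is set mostly by the brightest genes of its set, and the genes of a set did not all move together. At 18/1 5 hr the median log2 fold change was 0.50 for the fibroblast set, 0.08 for the motor neuron set and -0.11 for the astrocyte or oligodendrocyte set, against -0.18 for all genes. At an adjusted p under 0.05 (limma), 1, 2 and 1 of their genes were higher and 0, 2 and 0 lower. At 90/5 5 hr the summed signal of the astrocyte or oligodendrocyte set lay below that of all unstimulated samples (883 to 931), and the other 5 sets overlapped. At 18/1 2 hr and 90/5 2 hr all 6 sets overlapped with unstimulated samples. The part of these shifts in the results was not tested.

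A Fos protein does not bind DNA alone but as a pair with a Jun protein or another protein of the bZIP class, whereas Jun proteins also pair with each other, and the pairs bind the TPA response element and the cAMP response element (CRE). *Fos*, *Fosb*, *Jun* and *Junb* are textbook immediate early genes, transcribed within minutes of calcium entry or growth factor stimulation without new protein synthesis. *Fosl1* and *Fosl2* usually follow more slowly, *Jun* is also known in sensory neurons for its lasting rise after axon injury, and *Jund* is known for a high level in resting cells.

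The promoters of 6 of the 7 members were matched in the RefSeq table of GRCm38.p6, that of *Fosl1* was not. From 250 bases before to 50 bases after the start of each gene, both strands were searched for the CRE (TGACGTCA), for its core TGACG, which lies within the full CRE, for the TPA response element (TGANTCA) and for the CArG box, the site of serum response factor. The core was present in 3 of the 6 promoters, those of *Fos*, *Fosb* and *Junb*, and in 20.8% of the 32851 promoters of the table. *Fos* held it at 129 and at 66 bases before its start, *Fosb* at 60 and *Junb* at 106. The full CRE, the TPA response element and the CArG box were in 0 of the 6 windows, against 1.79%, 7.81% and 1.63% of all promoters, which says only that these letters are absent from these windows. The 250 bases before the start are shown for the 3 genes with the core and for *Jun*, which had no match. The core is in capitals, and each sequence is written 5′ to 3′ on the strand of its gene.
Fos (chr12:85473640-85473889, plus strand): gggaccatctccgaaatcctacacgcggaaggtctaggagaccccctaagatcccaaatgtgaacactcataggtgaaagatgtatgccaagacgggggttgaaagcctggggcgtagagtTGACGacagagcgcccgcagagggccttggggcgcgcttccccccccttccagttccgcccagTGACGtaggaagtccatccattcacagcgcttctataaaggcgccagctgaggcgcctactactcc
Fosb (chr7:19310046-19310295, minus strand): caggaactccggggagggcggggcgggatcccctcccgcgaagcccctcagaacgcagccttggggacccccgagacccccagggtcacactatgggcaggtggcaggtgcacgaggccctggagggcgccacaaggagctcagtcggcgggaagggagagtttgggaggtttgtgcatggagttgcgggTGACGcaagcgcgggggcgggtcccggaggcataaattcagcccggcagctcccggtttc
Junb (chr8:84978749-84978998, minus strand): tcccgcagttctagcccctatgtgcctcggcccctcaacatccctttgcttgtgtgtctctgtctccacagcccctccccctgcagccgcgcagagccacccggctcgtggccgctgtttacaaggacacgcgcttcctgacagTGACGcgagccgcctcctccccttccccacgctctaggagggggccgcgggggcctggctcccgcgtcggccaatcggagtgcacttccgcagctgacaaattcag
Jun (chr4:95052223-95052472, minus strand): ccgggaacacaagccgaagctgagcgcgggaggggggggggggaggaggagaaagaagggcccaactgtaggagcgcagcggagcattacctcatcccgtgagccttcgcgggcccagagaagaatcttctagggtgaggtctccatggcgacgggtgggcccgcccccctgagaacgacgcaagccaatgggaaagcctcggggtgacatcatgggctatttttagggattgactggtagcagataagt

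The measured value was the brightness of a spot, given here as log2 of the signal after background subtraction and normalization (normalized log2 signal). Signals of different probes are not on one scale, so each gene is compared only with itself. A difference is said to be called where limma gave an adjusted p under 0.05 (Benjamini-Hochberg, over all genes fitted). *Fosl1*, *Jun* and *Jund* reached 2 times the local background with no non-uniform mark in every one of the 20 samples, as did 10355 genes in all, among which they were fitted. *Fos*, *Fosb*, *Fosl2* and *Junb* met this in all 4 samples of at least 1 condition and were fitted among 18744 genes. *Fosb* and *Fosl2* missed the stricter rule through 1 spot each, marked non-uniform in the Cy5 sample of array 5 (18/1 5 hr). *Fos* and *Junb* were too dim in unstimulated neurons and pass only through stimulated conditions, in which they are then brighter by construction, so counts over the members describe and do not support a difference.

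Against unstimulated neurons, the members called in the fit of all 20 samples were Fos genes, each of them higher and not each in every condition. No Jun gene was called in that fit, and *Junb* was called higher at 90/5 5 hr once slide 2 was left out (adjusted p = 0.00354, limma). *Fos* was called higher in all 4 conditions, *Fosb* in all but 18/1 2 hr, and *Fosl1* and *Fosl2* at 18/1 5 hr and 90/5 2 hr. The number of the 7 members called was 1 after 2 hr and 4 after 5 hr of 18/1, and 4 after 2 hr and 2 after 5 hr of 90/5, each of them higher. Among all genes, the shares called higher were 0.0213%, 13.4%, 2.36% and 0.128% in the fit of 18744 genes and 0.0193%, 14.9%, 3.56% and 0.0483% in the fit of 10355 genes. All 4 samples of a condition lay above all unstimulated samples for 4 members after 18/1 2 hr, 4 after 18/1 5 hr, 4 after 90/5 2 hr and 5 after 90/5 5 hr, and so did 2.65%, 19.6%, 11.2% and 6.28% of the 18744 genes. The 4 comparisons share the unstimulated samples. In bulk RNA, fewer cells that express a gene and less of its RNA per cell cannot be told apart.

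**Figure D1:**
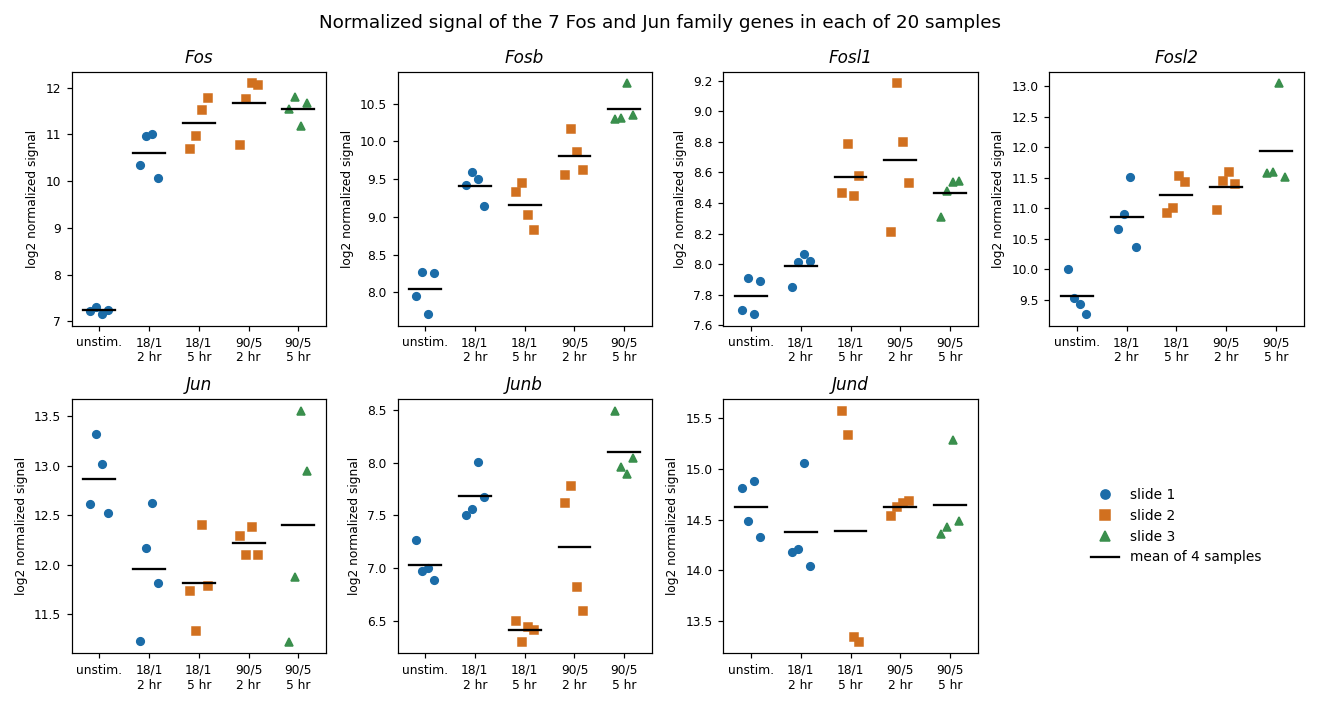
Normalized log2 signal of each of the 7 genes in all 20 samples, by condition, with the mean of the 4 samples as a bar. Stimulated samples of Fos (10.08 to 12.09) lie above all unstimulated samples (7.15 to 7.31), whereas Jun and Jund overlap between most conditions.

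*Fos* (NM_010234, probe on chromosome 12 of mm9 from 86817900 to 86817959) codes for c-Fos, the founding member of the family. In the 4 unstimulated samples its normalized log2 signal was 7.23, 7.31, 7.15 and 7.25. After 18/1 stimulation it was 10.34, 10.97, 10.9999 and 10.08 at 2 hr and 10.68, 10.96, 11.52 and 11.79 at 5 hr. After 90/5 stimulation it was 10.77, 11.76, 12.09 and 12.06 at 2 hr and 11.54, 11.80, 11.19 and 11.67 at 5 hr. Every stimulated sample was above every unstimulated sample, and the 4 stimulated conditions overlapped with one another except 90/5 5 hr, which lay above 18/1 2 hr. The rise was 10.3-fold at 18/1 2 hr (log2 fold change 3.36, standard error 0.44, adjusted p = 0.00184, limma), 16.1-fold at 18/1 5 hr (4.00, adjusted p = 8.16e-06), 21.6-fold at 90/5 2 hr (4.44, adjusted p = 1.5e-05) and 19.9-fold at 90/5 5 hr (4.32, adjusted p = 3.5e-05). At 18/1 5 hr the log2 fold change was 3.35 with median centring only and 4.41 without background subtraction, called in both. The call at 18/1 2 hr, the only one within a slide, was lost when array 1, 2 or 3 was left out (adjusted p = 0.149, 0.166 and 0.0985, limma), with log2 fold changes of 3.31 to 3.40. It was also lost without a filter on dim genes (adjusted p = 0.0538), with the same log2 fold change. After Benjamini-Hochberg adjustment of the methods' t-test *Fos* was called at 18/1 5 hr but not at 18/1 2 hr (adjusted p = 0.624), 90/5 2 hr (0.101) or 90/5 5 hr (0.108).

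On the scanner scale, the 10 *Fos* spots averaged 1.62 to 1.91 times their background in unstimulated neurons. With the 18/1 pattern this ratio was between 17.5 and 49.3 at 2 hr and between 44.1 and 211 at 5 hr, and with the 90/5 pattern between 54.8 and 169 at 2 hr and between 38.5 and 141 at 5 hr. Unstimulated *Fos* was therefore near the lower limit of the measurement, and the size of its rise depends on how the background is subtracted. Of the 10 spots, 3 and 5 were marked non-uniform in the samples of array 5 and 2 in the Cy5 sample of array 8.

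*Fosb* (NM_008036, probe on chromosome 7 of mm9 from 19888168 to 19888227) codes for FosB and for ΔFosB, a shortened form that is known to outlast the stimulus, and the probe was not matched to either form. Its normalized log2 signal was 7.95, 8.27, 7.71 and 8.26 in unstimulated neurons. With the 18/1 pattern it was 9.42, 9.60, 9.5 and 9.14 at 2 hr and 9.33, 9.45, 9.02 and 8.82 at 5 hr, so the times overlapped. With the 90/5 pattern it was 9.56, 10.17, 9.86 and 9.62 at 2 hr and 10.30, 10.31, 10.77 and 10.35 at 5 hr, and all 5 hr samples lay above all 2 hr samples. No stimulated sample fell into the unstimulated range.

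*Fosb* rose 2.16-fold at 18/1 5 hr (log2 fold change 1.11, standard error 0.32, adjusted p = 0.012, limma), 3.37-fold at 90/5 2 hr (1.75, adjusted p = 0.00388) and 5.22-fold at 90/5 5 hr (2.38, adjusted p = 0.0013). At 18/1 2 hr the log2 fold change was 1.37 and was not called (adjusted p = 0.961, limma), although it was larger than at 18/1 5 hr. In the 12 samples outside slide 2 it was called, without a block for the replicate number (adjusted p = 0.0153) and with it (adjusted p = 0.0313), and in all 20 samples with array weights (0.000694) or without the array block (0.00319). Only 0.0213% of all genes were called in that comparison, against 37% at 18/1 5 hr, so the same size of change met different thresholds. The calls at 18/1 5 hr, 90/5 2 hr and 90/5 5 hr were lost without array 1 or array 2, the arrays of unstimulated neurons (adjusted p = 0.0558 to 0.0939, limma), and that at 18/1 5 hr also when samples were only centred on their medians (log2 fold change 0.62, adjusted p = 0.145).

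*Fosl1* (NM_010235, chromosome 19, probe from 5455496 to 5455555) codes for Fra-1. Its normalized log2 signal was 7.70, 7.91, 7.67 and 7.89 in unstimulated neurons and 7.85, 8.01, 8.07 and 8.02 at 18/1 2 hr, and these groups overlapped. It was 8.46, 8.78, 8.45 and 8.57 at 18/1 5 hr, 8.21, 9.18, 8.80 and 8.53 at 90/5 2 hr and 8.31, 8.48, 8.53 and 8.54 at 90/5 5 hr, all above the unstimulated range. It rose 1.71-fold at 18/1 5 hr (log2 fold change 0.77, standard error 0.26, adjusted p = 0.0201, limma) and 1.85-fold at 90/5 2 hr (0.89, adjusted p = 0.0423). At 18/1 2 hr (0.19) and 90/5 5 hr (0.67) the adjusted p in limma was 1. With array weights it was called at 90/5 5 hr (0.59, adjusted p = 0.00016).

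Both *Fosl1* calls were fragile. The call at 18/1 5 hr was lost without array 1 or 2 (adjusted p = 0.114 and 0.123, limma) and without replicate 4 of 90/5 5 hr (0.0583), with median centring only (log2 fold change 0.47, adjusted p = 0.197) and without a filter (0.0883). The call at 90/5 2 hr was lost in 18 of the 30 fits that left out 1 sample or 1 array (adjusted p up to 0.312), among them those without array 1, 2, 3, 4, 8, 9 or 10. It was also lost in 8 of 18 other settings, among them no filter (adjusted p = 0.196, limma), median centring only (0.0929) and means of arrays (0.0636).

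*Fosl2* (NM_008037, chromosome 5, probe from 32460076 to 32460135) codes for Fra-2. Its normalized log2 signal was 9.995, 9.53, 9.44 and 9.26 in unstimulated neurons, and 10.65, 10.90, 11.51 and 10.36 at 18/1 2 hr. It was 10.93, 11.01, 11.53 and 11.44 at 18/1 5 hr, 10.96, 11.44, 11.59 and 11.40 at 90/5 2 hr and 11.58, 11.60, 13.05 and 11.52 at 90/5 5 hr. All stimulated samples lay above all unstimulated samples, and replicate 3 of 90/5 5 hr stood far above the other 3. Before normalization the spot of that replicate was 128 times its background, against 97.4 to 112 times in the other 3. The gene rose 3.18-fold at 18/1 5 hr (log2 fold change 1.67, standard error 0.51, adjusted p = 0.0154, limma) and 3.47-fold at 90/5 2 hr (1.79, adjusted p = 0.046), and was not called at 18/1 2 hr (1.30, adjusted p = 1) or at 90/5 5 hr (2.38, adjusted p = 0.0805). With array weights it was called at 18/1 2 hr (1.03, adjusted p = 0.0151, limma). At 90/5 5 hr 8 of 20 other settings called it (adjusted p from 5.88e-07 to 0.601 over the 20), among them array weights, no array block (0.000175), median centring only (0.0159) and only the 2 conditions (0.023), as did the fits without array 5, 6, 7 or 8 (0.0113 to 0.0395). The call at 18/1 5 hr was lost without array 1 or 2 (adjusted p = 0.0706 and 0.151), with median centring only (log2 fold change 0.89, adjusted p = 0.118) and without a filter (0.055), and that at 90/5 2 hr in 19 of 30 fits without 1 sample or array (adjusted p up to 0.422), among them those without array 1, 2, 3, 4, 8 or 9. The call at 90/5 2 hr was also lost in 5 of 18 other settings, among them no filter (adjusted p = 0.164, limma), quantile normalization (0.0602) and saturated probes left out (0.065). The second *Fosl2* probe was well above background in only 3 of 20 samples and gives no usable fold change.

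Judged on brightness alone, with the non-uniform mark not used, *Fosb* and *Fosl2* passed in all 20 samples. In that fit of 14655 genes, a rule added after the data were seen, *Fosl2* was also called at 90/5 5 hr (adjusted p = 0.0405, limma), where 0.0955% of all genes were called higher, and neither gene was called at 18/1 2 hr (adjusted p = 0.906 for *Fosb*).

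*Jun* (NM_010591, chromosome 4, probe from 94716928 to 94716987), the c-Jun gene, was not called in any comparison of the fit of all 20 samples. Its normalized log2 signal was 12.61, 13.32, 13.01 and 12.52 in unstimulated neurons, 11.23, 12.17, 12.63 and 11.81 at 18/1 2 hr and 11.73, 11.33, 12.40 and 11.78 at 18/1 5 hr. At 90/5 2 hr it was 12.29, 12.10, 12.38 and 12.10, and at 90/5 5 hr 11.22, 11.88, 13.56 and 12.95. The normalized mean was lower than in unstimulated neurons in each stimulated condition, with log2 differences of -0.91, -1.06, -0.65 and -0.47 (standard error 0.50 each). Before normalization its spot was 74.6 to 210.7 times its background in unstimulated neurons and 52.1 to 152.3 times at 18/1 2 hr. The ratio was 87.7 to 243.2 at 18/1 5 hr, 109.3 to 208.8 at 90/5 2 hr and 106.9 to 253.7 at 90/5 5 hr. Each stimulated condition thus overlapped with the unstimulated range. The lack of overlap at 18/1 5 hr and 90/5 2 hr appears only after normalization. At 90/5 5 hr the arrays disagreed, with 11.22 and 11.88 on array 9 and 13.56 and 12.95 on array 10, and the log2 difference was -1.32 without array 10 and 0.38 without array 9, neither of them called, so its direction depends on the array. The 18/1 5 hr and 90/5 2 hr samples all lay below the unstimulated samples, which 33% and 17% of all genes also did, and the smallest adjusted p was 0.0901 at 18/1 5 hr. The 95% confidence intervals ran from -2.09 to -0.02 there and from -1.51 to 0.57 at 90/5 5 hr, both of which hold a log2 difference of -1 and neither of which reaches 1. *Jun* was called lower under other settings. At 18/1 5 hr these were median centring only (-1.62, adjusted p = 0.00356, limma), no array block (-1.06, adjusted p = 0.0229) and leaving out array 6 or array 9 (adjusted p = 0.0456 and 0.0461). With array weights it was called lower at 18/1 2 hr (-1.37, adjusted p = 0.00704) and at 90/5 5 hr (-1.13, adjusted p = 0.00227).

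*Junb* (NM_008416, chromosome 8, probe from 87501881 to 87501940) codes for JunB, which can limit the activity of c-Jun. It was dim: well above background in 3 of 4 unstimulated samples, 4 of 4 at 18/1 2 hr, 0 of 4 at 18/1 5 hr, 2 of 4 at 90/5 2 hr and 4 of 4 at 90/5 5 hr. Its normalized log2 signal was 7.26, 6.97, 7.0 and 6.89 in unstimulated neurons and 7.51, 7.56, 8.01 and 7.67 at 18/1 2 hr. It was 6.49, 6.30, 6.44 and 6.42 at 18/1 5 hr, 7.62, 7.78, 6.82 and 6.59 at 90/5 2 hr and 8.49, 7.96, 7.89 and 8.04 at 90/5 5 hr. The 18/1 2 hr and 90/5 5 hr samples all lay above the unstimulated samples, the 18/1 5 hr samples all lay below them, and the 90/5 2 hr samples fell into 2 pairs by array.

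Against unstimulated neurons *Junb* was not called in any condition in the limma fit of all 20 samples with the array block, with log2 differences of 0.66, -0.62, 0.17 and 1.07 (standard error 0.29, adjusted p = 1, 0.097, 0.792 and 0.373). With 0 of 4 samples at 18/1 5 hr and 3 of 4 unstimulated samples well above background, the second of these gives no measured fold. The third rests on 90/5 2 hr, with 2 of 4 samples well above background. It ran from -0.33 to 0.67 over the fits without 1 sample or 1 array, with 0 calls. The calls at 3 of these conditions depended on the setting. With array weights *Junb* was called higher at 18/1 2 hr (adjusted p = 0.0305, limma), lower at 18/1 5 hr (0.0198) and higher at 90/5 5 hr (2.36e-05). Without the array block it was called lower at 18/1 5 hr (0.0233) and higher at 90/5 5 hr (0.0229), as it was without array 7 (0.0177 and 0.029) and without array 8 (0.022 and 0.0395). It was also called at 90/5 5 hr in a fit of only the 2 conditions (0.0244), and at 18/1 5 hr by the methods' t-test after Benjamini-Hochberg adjustment (0.0241). Before normalization, its spot was 1.31 to 1.76 times its background in unstimulated neurons and 1.5 to 2.09 times at 18/1 5 hr, so the lower value at 18/1 5 hr appears only after normalization. The ratio lay between 2.09 and 3.89 at 18/1 2 hr, between 2.24 and 4.06 at 90/5 2 hr and between 3.77 and 8.94 at 90/5 5 hr.

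**Figure D2:**
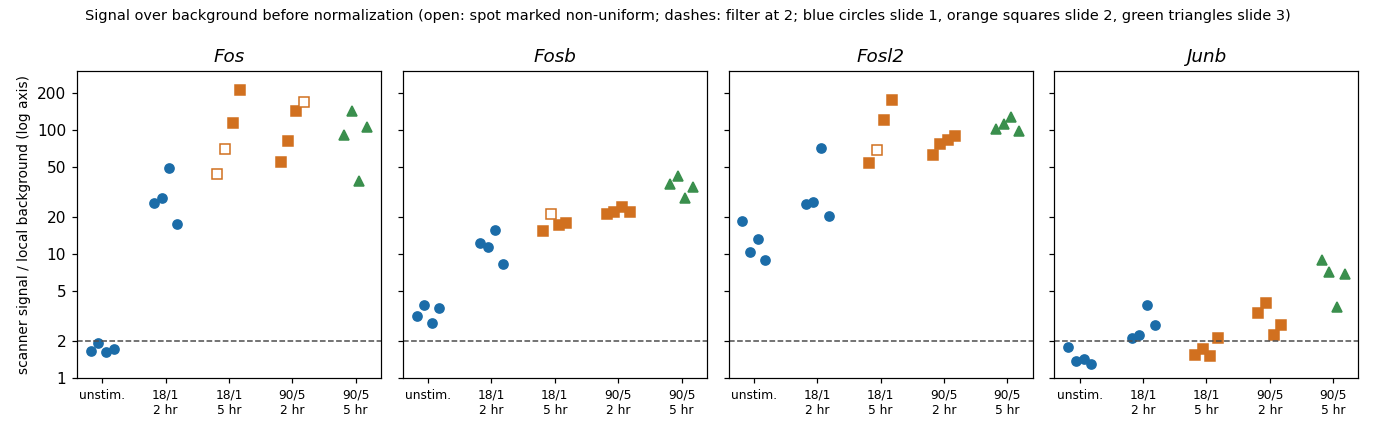
Scanner signal divided by local background, before normalization, for Fos, Fosb, Fosl2 and Junb in all 20 samples (log axis); the dashed line is at 2 and open symbols mark samples with non-uniform spots. Junb stays below 10 times its background in every sample, and Fos is below 2 in unstimulated neurons.

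*Jund* (NM_010592, chromosome 8, probe from 73224436 to 73224495) was bright in every sample, at 213 to 1506 times its background, and was not called in any comparison of all 20 samples. Its normalized log2 signal was 14.82, 14.48, 14.88 and 14.33 in unstimulated neurons, 14.18, 14.21, 15.06 and 14.05 at 18/1 2 hr, 14.54, 14.62, 14.66 and 14.68 at 90/5 2 hr, the last of them saturated, and 14.36, 14.43, 15.28 and 14.49 at 90/5 5 hr. At 18/1 5 hr the arrays disagreed, with 15.57 and 15.34 on array 5, both saturated as well, and 13.34 and 13.30 on array 6. The log2 difference from unstimulated neurons was -0.24 there (standard error 0.45, adjusted p = 0.69, limma), -1.31 without the saturated array 5 (adjusted p = 0.00466) and 0.83 without array 6 (adjusted p = 0.0342), so its direction depends on the array. The other 3 differences were -0.25, -0.00 and 0.01, with 95% confidence intervals that lay within -1.18 to 0.94.

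**Figure D3:**
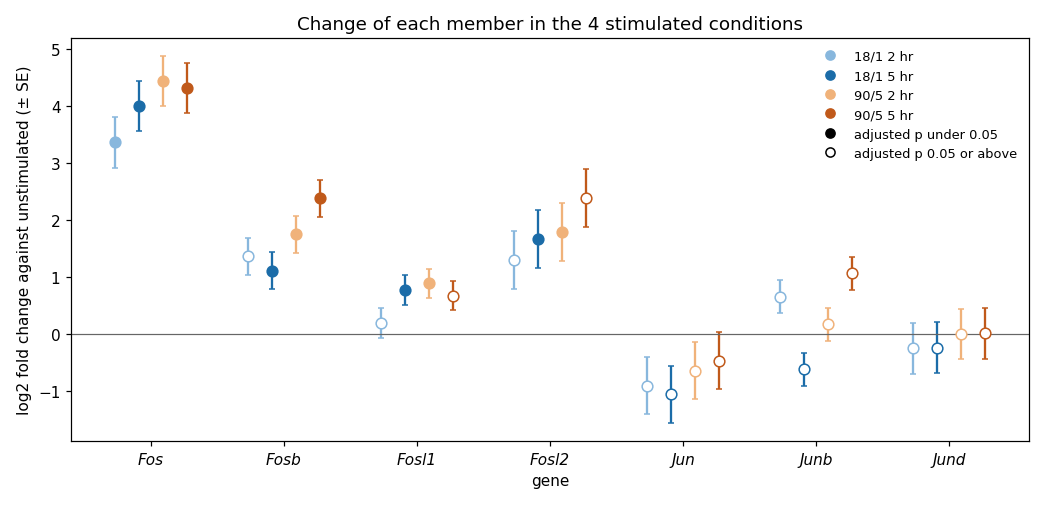
Log2 fold change of each of the 7 genes against unstimulated neurons in the 4 stimulated conditions, with bars of 1 standard error to each side; filled symbols are called at an adjusted p under 0.05 in limma. Fos stands at 3.36 to 4.44, Fosb at 1.11 to 2.38, and Jund at -0.25 to 0.01.

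The direct comparison of the patterns asks whether the same number of action potentials grouped in another way gave another response. At 5 hr, 2 of the 7 members were called between the patterns, *Fosb* and *Junb*, both higher with 90/5, in a comparison in which 23.8% of all genes were called higher and 14.4% lower. *Fosb* was 2.42-fold higher (log2 difference 1.27, standard error 0.32, adjusted p = 0.00484, limma). *Junb* was 3.22-fold higher (1.68, standard error 0.29, adjusted p = 0.000235), but it was not well above background at 18/1 5 hr. With a floor for dim signals in place of its mean there, the difference was 2.68-fold, a value that leaves out the sampling error and is no lower limit. For both genes all 4 samples of 90/5 5 hr lay above all 4 of 18/1 5 hr, as in 28% of all genes, and all 4 samples of 18/1 5 hr were on slide 2 and all 4 of 90/5 5 hr on slide 3.

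In the fit of all 20 samples with the array block, the remaining members were not called between the patterns at 5 hr. *Fos* differed by a log2 of 0.31 (95% confidence interval -0.61 to 1.24), *Fosl1* by -0.10 (-0.64 to 0.44), *Fosl2* by 0.71 (-0.35 to 1.78), *Jun* by 0.59 (-0.45 to 1.63) and *Jund* by 0.25 (-0.67 to 1.18). *Fosl2* was called higher with 90/5 without the array block (adjusted p = 0.0463, limma) and *Jun* without array 9 (log2 difference 1.44, adjusted p = 0.0358). The *Jun* value ran from -0.26 to 1.44 over the fits without 1 sample or 1 array, so its direction depends on the samples kept. *Jund* was called higher with 90/5 without array 5 (1.32, adjusted p = 0.00394) and lower without array 6 (-0.82, adjusted p = 0.0367). The latter rests on the 2 saturated samples of array 5 and is not a measured difference. The *Junb* call held in each of the 30 fits without 1 sample or 1 array, whereas the *Fosb* call was lost without array 10 (log2 difference 1.15, adjusted p = 0.0618, limma). The median over all genes shifted by 0.17 in this comparison, and by 0.62 under median centring alone. Under that scaling *Fos* (1.20, adjusted p = 0.0408, limma), *Fosl2* (1.58, adjusted p = 0.00731) and *Jun* (1.37, adjusted p = 0.0102) were called higher with 90/5 as well. Relative to these medians *Fosb* was higher with 90/5 by 1.1 and 1.39. The *Junb* values were 1.51 and 1.4, which are not measured differences, since 0 of 4 samples at 18/1 5 hr were well above background.

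At 2 hr 0 of the 7 members were called between the patterns in the fit of all 20 samples with the array block, where 3.92% and 5.02% of all genes were called in the 2 fits. At an unadjusted p under 0.05 limma gave *Fos* and *Fosl1*, with 18.5% and 19.8% of all genes. *Fos* was higher with 90/5 by a log2 of 1.07 (95% confidence interval 0.15 to 2.00, adjusted p = 0.194) and *Fosl1* by 0.69 (0.15 to 1.23, adjusted p = 0.134), the latter with all 4 samples above those of 18/1 2 hr, as in 9.05% of all genes. *Fosb* differed by 0.39 (-0.29 to 1.06), *Fosl2* by 0.49 (-0.57 to 1.56) and *Junb* by -0.49 (-1.09 to 0.12). Other settings called 3 of the members. *Fos* was called higher with 90/5 with array weights (log2 difference 1.44, adjusted p = 0.0184, limma), without the array block (1.07, adjusted p = 0.0142) and without array 7 (1.48, adjusted p = 0.0176). The *Fos* value ran from 0.66 to 1.48 over the fits without 1 sample or 1 array (adjusted p up to 0.877, limma). *Fosl1* was called higher with array weights (0.0288), without the array block (0.00733) and without array 5, 6 or 7 (0.045, 0.0438 and 0.0282) or the Cy3 sample of array 7 (0.0236). *Junb* was called lower with 90/5 without array 7 (-0.98, adjusted p = 0.00813), and its value ran from -0.98 to 0.01 over the fits without 1 sample or 1 array.

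Whether the difference between the patterns itself changed from 2 hr to 5 hr was tested as an interaction in limma. It was called for *Junb* (log2 2.17, standard error 0.41, adjusted p = 0.000452), whose patterns differed by -0.49 at 2 hr and by 1.68 at 5 hr. Both terms rest on dim signals, with *Junb* well above background in 2 of 4 samples at 90/5 2 hr and 0 of 4 at 18/1 5 hr, so the size of the change is not a measured value. The term at 5 hr was 1.42 with a floor for dim signals in place of the 18/1 5 hr mean, sampling error left out. That at 2 hr ran from -0.98 to 0.01 over the fits without 1 sample or 1 array. The interaction was not called for the other 6 members, among them *Fosb* (0.89, adjusted p = 0.133) and *Fosl1* (-0.79, adjusted p = 0.0848). Among all genes 38.4% of 18744 and 44.9% of 10355 were called, and the interaction rests on the conditions of slide 2 on both sides.

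Within the 18/1 pattern, *Junb* was the only member called between the times in the fit of all 20 samples with the array block. It was 2.42-fold lower at 5 hr than at 2 hr (log2 difference -1.27, standard error 0.29, adjusted p = 0.00239, limma), with all 4 samples below those of 2 hr, as in 30.8% of all genes. With a floor for dim signals in place of its mean at 5 hr it was 2.02-fold lower, a value that leaves out the sampling error. In this comparison 22.8% of the 18744 genes were called lower, and the *Junb* call was lost without array 4 (-1.12, adjusted p = 0.0516). *Fosl1* had all 4 samples of 5 hr above those of 2 hr, as 18.3% of all genes did, and was not called (0.58, adjusted p = 0.0753, limma). It was called without the array block (0.00534), on means of arrays (0.0476), without background subtraction (0.0498), without array 7 or 8 (0.0106 and 0.029) or either sample of array 7 (0.0377 and 0.0291), and by the methods' t-test after Benjamini-Hochberg adjustment (0.0237). With array weights *Fos* (1.25, adjusted p = 0.00369), *Fosl1* (0.63, adjusted p = 0.0137) and *Fosl2* (0.81, adjusted p = 0.0461) were called higher at 5 hr. Without the weights *Fos* differed by 0.64 (adjusted p = 0.264, limma) and *Fosl2* by 0.37 (adjusted p = 0.592). Over the other settings *Fos* ran from -0.12 to 1.25 and *Fosl2* from -0.39 to 0.81, so their direction depends on the setting. *Jund* was called lower without array 5 (-1.05, adjusted p = 0.0174) and higher without array 6 (1.08, adjusted p = 0.00797). The latter rests on the 2 saturated samples of array 5 and is not a measured difference. Within the 90/5 pattern 0 members were called between 5 hr and 2 hr in the fit of all 20 samples with the array block, where 7.9% and 9.01% of genes were. All 4 samples of *Fosb* and of *Junb* were higher at 5 hr, by a log2 of 0.63 (adjusted p = 0.266) and 0.90 (adjusted p = 0.0627), which 13.2% of genes also were, and *Junb* alone had an unadjusted p under 0.05, with 21.8% of genes. Without the array block both were called (adjusted p = 0.0224 and 0.00704, limma), and *Junb* also with array weights (0.0109) and without array 5, 6 or 7 (0.0253, 0.0236 and 0.000638). The *Junb* value ran from 0.40 to 1.39 over the fits without 1 sample or 1 array (adjusted p up to 0.627, limma). At 90/5 2 hr only 2 of 4 samples were well above background for *Junb*.

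In the last set of comparisons neither the pattern nor the time was shared. Between 90/5 2 hr and 18/1 5 hr, which share slide 2, 0 members were called in the fit of all 20 samples, against 8.94% and 12.9% of genes. *Junb* was well above background in 0 of 4 samples at 18/1 5 hr and in 2 of 4 at 90/5 2 hr, so its means there, 6.41 and 7.20, give no measured fold. They differ by a log2 of 0.79 (adjusted p = 0.0862, limma), by 0.29 without array 7 and by 1.29 without array 8 (adjusted p = 0.00188). *Fosb* differed by a log2 of 0.64 (adjusted p = 0.208). There was no overlap of samples in either gene, which was so for 13.1% of all genes in that direction, and *Junb* alone had an unadjusted p under 0.05, with 27.1% of genes. Without the array block both were called (adjusted p = 0.0125 and 0.0166, limma). Within this slide, *Fos* (0.43, 95% confidence interval -0.49 to 1.35), *Fosl1* (0.11, -0.43 to 0.65) and *Fosl2* (0.13, -0.94 to 1.19) overlapped between the conditions. With median centring only, which moved the median of all genes by 0.57, *Fos* (1.33, adjusted p = 0.0383), *Fosb* (1.19, adjusted p = 0.0149) and *Jun* (1.27, adjusted p = 0.0216) were called higher at 90/5 2 hr.

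**Figure D4:**
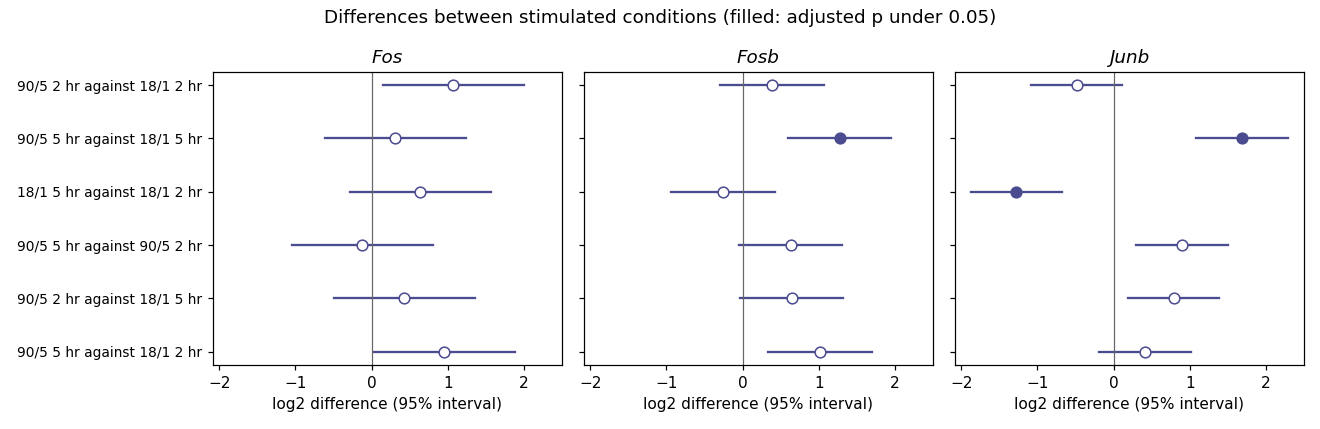
Log2 differences of Fos, Fosb and Junb between each 2 of the 4 stimulated conditions, with 95% confidence intervals; filled symbols are called at an adjusted p under 0.05 in limma. Junb and Fosb are higher at 90/5 5 hr than at 18/1 5 hr, by 1.68 (a dim signal at 18/1 5 hr) and 1.27, and Fos has no called difference.

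Because slide 2 adds to the spread that all conditions share in the fit, the 12 samples of slides 1 and 3 were also fitted alone. Log2 fold changes were identical and standard errors were lower, 0.22 in place of 0.44 for *Fos* and 0.17 in place of 0.32 for *Fosb*. At 18/1 2 hr, *Fos* (adjusted p = 2.79e-05, limma) and *Fosb* (adjusted p = 0.0153) were called, with 0.087% of 17249 and 0.0403% of 14902 genes in the 2 fits. This comparison lies within slide 1. *Junb* (0.66, adjusted p = 0.262), *Fosl2* (1.30, adjusted p = 0.336) and *Jun* (-0.91, adjusted p = 0.625) were not called.

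At 90/5 5 hr, 5 of the 7 members were called higher than in unstimulated neurons in the 12 samples, with 1.83% and 1.3% of all genes called higher. They were *Fos* (adjusted p = 1.75e-06, limma), *Fosb* (2.86e-05), *Fosl2* (0.00168), *Junb* (0.00354) and *Fosl1* (0.00473), with *Jun* and *Jund* not called (0.65 and 0.987). *Junb* there was 2.09-fold higher, at a log2 fold change of 1.07 with a standard error of 0.15. Between 90/5 5 hr and 18/1 2 hr, *Fos* (log2 difference 0.95, adjusted p = 0.0423), *Fosb* (1.02, adjusted p = 0.0102) and *Fosl1* (0.48, adjusted p = 0.0351) were called higher with 90/5, in a comparison with 1.32% and 0.792% of genes called higher. With a block for the replicate number *Fosb* was called there (adjusted p = 0.0236), and *Fos* (0.0557) and *Fosl1* (0.0625) were not. With all 20 samples and the array block 0 members were called there, against 0.112% and 0.0386% of genes, and *Fos*, *Fosb* and *Fosl2* had an unadjusted p under 0.05, with 2.85% of genes. With array weights *Fos* (adjusted p = 0.000481, limma), *Fosb* (0.000991), *Fosl1* (0.00796) and *Fosl2* (0.0046) were called higher, and *Fosb* also without the array block (0.0135) and in only the 2 conditions (0.0329). All 4 samples of *Fos*, *Fosb*, *Fosl1* and *Fosl2* were higher at 90/5 5 hr, as in 4.64% of genes. Both of these comparisons cross from slide 1 to slide 3.

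**Figure D5:**
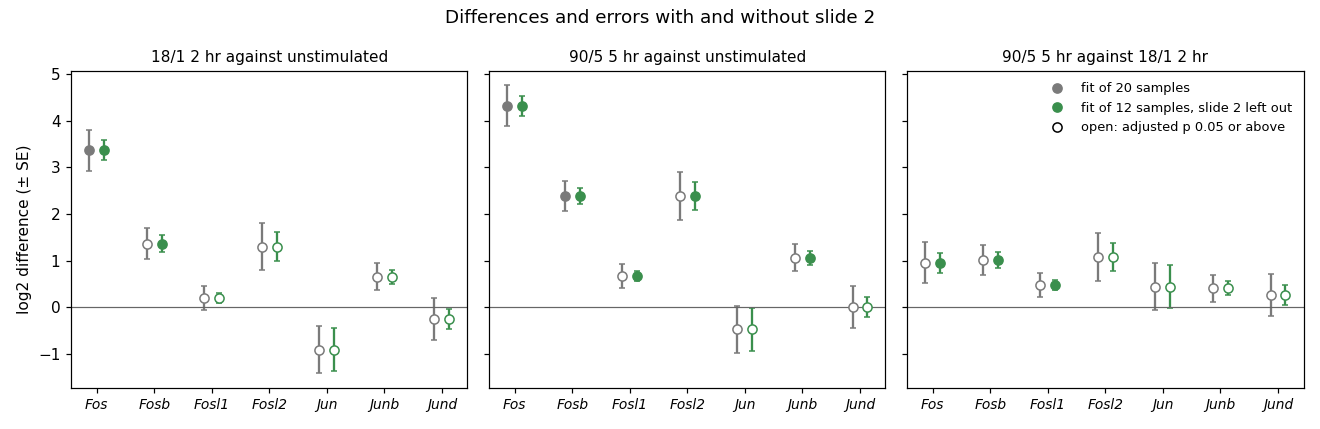
Log2 fold changes of the 7 genes in the 3 comparisons that do not involve slide 2, with bars of 1 standard error to each side, from the fit of all 20 samples and from the fit of the 12 samples of slides 1 and 3. The estimates coincide and the bars of the 12-sample fit are shorter, for Fos at a standard error of 0.22 in place of 0.44.

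The members followed one another to different degrees. Over the 20 samples, Pearson's r of the normalized log2 signals was 0.83 between *Fos* and *Fosb*, 0.86 between *Fos* and *Fosl2*, 0.77 between *Fos* and *Fosl1* and 0.15 between *Fos* and *Junb*. Over the 12 samples of slides 1 and 3 it was 0.95, 0.86, 0.81 and 0.91 in the same order, so *Junb* lay with the Fos genes on those slides. *Jun* and *Fos* had an r of -0.40 and -0.37, and *Jund* and *Fos* of -0.13 and -0.08. These samples share arrays and conditions, and the values describe them without a test.

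Over all 20 samples the genes most like *Fos* were *Npas4* (r = 0.96), *Nr4a1* (0.96) and *Rgs2* (0.96), the first 2 transcription factors of the immediate early class and the third a regulator of G-protein signalling. Those most like *Fosb* were *Gadd45b* (0.91), *Nr4a1* (0.91) and *Npas4* (0.90), and *Egr4* (0.96), *Npas4* (0.96) and *Socs3* (0.96) over the 12 samples. *Fosl2* was most like *C2cd4b* (0.93), *Npas4* (0.90) and *Areg* (0.89), the last of them an EGF receptor ligand. *Junb* was most like *Rem2* (0.94), *Srsf5* (0.92) and *Eif3i* (0.92) over 20 samples and like *Tiparp* (0.94), *Pim1* (0.92) and *Retn* (0.92) over the 12 samples, so no gene was shared between its lists. The leading r was 0.85 for *Fosl1* (*Siah2*), 0.87 for *Jun* (a probe without a gene name) and 0.92 for *Jund* (*Aspscr1*).

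The rest of the AP-1 pathway was followed through 5 lists of genes, and 0 of their members were called at 18/1 2 hr or 90/5 5 hr in the fit of 18744 genes. At an unadjusted p under 0.05 limma gave 1 and 3 of the 97 list genes in those comparisons, with 0.587% and 3.22% of all genes. Most calls came at 18/1 5 hr, where 37% of all genes were called, 13.4% higher and 23.6% lower, against 5.13% at 90/5 2 hr (2.36% higher and 2.77% lower), 0.149% at 90/5 5 hr and 0.0213% at 18/1 2 hr. The median log2 fold change over all genes was -0.18 there, -0.10 at 90/5 2 hr, -0.00 at 18/1 2 hr and -0.02 at 90/5 5 hr.

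Of 23 measured bZIP partners of AP-1, 6 were called higher and 5 lower at 18/1 5 hr, with a list median of 0.33. *Maff*, a small Maf protein without an activation domain, rose at 18/1 5 hr (log2 fold change 2.21, adjusted p = 7.95e-05, limma) and was the only one of the list called at 90/5 2 hr (1.72, adjusted p = 0.00462). *Cebpb*, a factor of inflammatory and injury responses, rose at 18/1 5 hr (1.88, adjusted p = 0.00046), and *Atf6*, which acts in the response to unfolded protein, fell there (-2.02, adjusted p = 0.00177). With slide 2 left out, 3 of these genes were called higher at 90/5 5 hr, against 1.83% of all genes, *Maff* (0.89, adjusted p = 0.0122), *Cebpb* (0.79, adjusted p = 0.0135) and *Batf3* (0.58, adjusted p = 0.0255).

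Of 25 genes for kinases and JNK scaffold proteins upstream of AP-1, 2 were called higher and 6 lower at 18/1 5 hr against unstimulated neurons. Their median was -0.27, and 13.4% and 23.6% of all genes were called higher and lower there. In the other 3 conditions against unstimulated neurons 0 were called. *Map2k4* (2.01, adjusted p = 0.000676, limma), which activates JNK, and the p38 kinase gene *Mapk14* (1.85, adjusted p = 0.000841) rose, and *Map3k11* (-1.74, adjusted p = 0.00072), a kinase further up the JNK cascade, fell. Of 15 factors that act on the *Fos* and *Jun* promoters, 2 were called higher and 1 lower at 18/1 5 hr and 1 in each direction at 90/5 2 hr, with medians of -0.18 and -0.01. *Mef2a* (2.24 and 1.91) rose and *Stat3* (-1.69 and -1.62) fell in both, and *Mkl2*, a cofactor of serum response factor, rose at 18/1 5 hr (1.65, adjusted p = 0.00801).

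Of 20 known target genes of AP-1, 2 were called higher and 2 lower at 18/1 5 hr and 1 in each direction at 90/5 2 hr, with medians of 0.11 and 0.25. *Th*, the tyrosine hydroxylase gene, fell in both (-1.83, adjusted p = 0.000279, and -1.44, adjusted p = 0.0112, limma). *Il6*, which codes for a cytokine, rose at 18/1 5 hr (1.95, adjusted p = 0.022). Of 14 genes for the turnover and binding of Fos and Jun proteins, 2 were called in each direction at 18/1 5 hr and 1 lower at 90/5 2 hr, with medians of 0.26 and -0.01. *Nfatc3*, a partner of AP-1 on composite sites, fell in both conditions (-1.94 and -1.34), *Dnmt1* fell (-2.21) and *Smad3* rose (1.27) at 18/1 5 hr. All of these calls lie on slide 2. Without slide 2, 1 target gene, *Cd44* (-0.63, adjusted p = 0.00389), and 1 ubiquitin ligase, *Itch* (-0.69, adjusted p = 0.0485), were called lower at 90/5 5 hr, where 2.12% of 17249 genes were called lower.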

How the data were processed

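RNA of 20 samples was measured on 10 two-colour Agilent arrays of 60-base probes. The authors deposited, for each colour, a mean intensity per spot and a median intensity around it, linear and not normalized, with the scanner's other marks for spots (saturated, non-uniform, well above background), which were used as deposited. The file headers name Feature Extraction 10.7.1.1 for slide 1 and 10.7.3.1 for slides 2 and 3. Another 35 columns per array and colour were not used. The later of 2 deposited annotations was used for all arrays, which changes the gene name of 8333 of 44397 spots.

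Signals were corrected with normexp (offset 50), normalized by loess within arrays (control spots at weight 0) and Aquantile between arrays, and averaged over spots of a probe. Where a gene had several probes, the brightest on average stood for it. The 20 samples were fitted in limma 3.58.1 (R 4.3.3) with condition means, a colour term and the array as a random block (correlation 0.529 in the stricter filter, 0.639 in the looser), followed by empirical Bayes moderation and Benjamini-Hochberg adjustment at 0.05. Figures were drawn with matplotlib 3.10.9 in Python 3.11.15.

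Replicate numbers cannot be assigned to the samples of slide 2, which are named by array and colour. Among the others, the deviations of same-numbered samples from their group means correlated with r of 0.41 to 0.72 in all 4 pairs of unstimulated and 18/1 2 hr, which were therefore taken as paired, and with r of -0.05 to 0.65 in the 8 pairs with 90/5 5 hr, which were not. Same-numbered samples also share their colour. Members, gene lists and tests were chosen with earlier results of these data known. The text names all 7 members, up to 3 called genes of each list per condition with the largest change, and the 3 genes most correlated with a member, except 1 list gene that is not reported here. *Batf3*, *Cd44* and *Itch* are named as called without slide 2, after their values were seen. The number of arrays, 2 per condition, limits precision. Alternatives varied the background, scaling, filters, blocks, samples and test. The methods' t-test was applied with a fold limit set by each gene's spread.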

Additional observations from a re-analysis of the deposited data

Results flagged for a closer look

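Within each condition, the 4 samples of each gene were searched for a sample far from the other 3, as a gap that takes up more of the range than Dixon's 95% critical value. Over 35 such groups chance gives about 1 in 20. In 90/5 5 hr, replicate 3 lay above the others for *Fosl2* (0.945), *Fosb* (0.892) and *Jund* (0.855), and in 18/1 2 hr replicate 3 lay above the others for *Jund* (0.834). Replicate 3 of 90/5 5 hr is a sample of array 10, and its *Fosl2* signal of 13.05 compares with 11.52 to 11.60 in the others. These are normalized signals. Before normalization the ratio of signal to background in this sample was 128 for *Fosl2*, against 97.4 to 112 in the others. It was 661 for *Jund*, against 544 to 660, and 28.2 for *Fosb*, the lowest of the 4, against 34.4 to 42.8. After normalization the same sample was the highest of its condition for *Jun* (13.56) and the lowest for *Fos* (11.19) and *Junb* (7.89). Its *Jun* ratio before normalization was 246, below the 254 of replicate 4.

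The difference between the 90/5 and 18/1 patterns of *Junb* changed by a log2 of 2.17 from 2 hr to 5 hr (interaction in limma, adjusted p = 0.000452). All 4 samples at 18/1 5 hr and 2 of 4 at 90/5 2 hr were not well above background for *Junb*, and both conditions lie on slide 2. Their part in the result was not tested.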

How the results depend on the processing

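Over 21 settings and 30 fits without 1 sample or 1 array, 3126 of 3386 values kept their direction and their side of the threshold, 113 gained a call, 77 lost it, 67 changed sign without a call, and 3 changed sign with a call. The last were *Jund*, at 0.83 for 18/1 5 hr against unstimulated and -0.82 for 90/5 against 18/1 at 5 hr without array 6, and at -1.05 for 18/1 5 hr against 2 hr without array 5. With the other array of 18/1 5 hr left out instead, the values were -1.31 and 1.32 (without array 5) and 1.08 (without array 6). Both *Jund* samples of array 5 were saturated, so the values without array 6 are not measured differences.

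Counts of called members cover those that pass the filter in use, so that they compare different genes: 3 members in the stricter filter, 2 without saturated probes, 5 on dim spots only or without slide 2, and 7 within a condition, without a filter or with spots missing. At 18/1 2 hr, 0 became 1 with array weights, the filter within a condition, non-uniform spots set to missing, slide 2 left out or the unadjusted methods' t-test. At 18/1 5 hr, 1 became 2 without the array block, without a filter or by the unadjusted t-test, 3 with the filter on dim spots only, 4 with the filter within a condition or non-uniform spots set to missing, and 0 to 3 without single samples or arrays. At 90/5 2 hr, 1 became 0 on means of arrays, with median centring, in only the 2 conditions, without saturated probes or by the adjusted t-test (1 by the unadjusted t-test), 2 on dim spots only or without a filter, 3 within a condition, 4 with spots missing, and 0 to 1 in the fits without a sample or array. At 90/5 5 hr, 0 became 1 by the unadjusted t-test, 2 with array weights, on dim spots only, within a condition or without a filter, and 3 with spots missing or without slide 2.

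Between the patterns, 0 became 1 at 2 hr with array weights or no array block, and at 5 hr 1 on dim spots only or with median centring and 2 within a condition, without a filter or with spots missing. Both were 0 to 1 without single samples or arrays, as was 18/1 5 hr against 2 hr, where 0 became 1 with array weights, within a condition, on means of arrays, without the block, background subtraction or a filter, with spots missing and by both t-tests. With spots missing, 90/5 5 hr against 2 hr gave 1. Median centring gave 1 for 90/5 2 hr against 18/1 5 hr, as did leaving out array 5 (0 to 1). For 90/5 5 hr against 18/1 2 hr, weights or the unadjusted t-test gave 1 and leaving out slide 2 gave 2.

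The 12 samples with replicate numbers were also fitted with a replicate block, including those of 90/5 5 hr, which were not judged paired with the others. With the block, called members beyond those of the 20-sample fit were *Fosb* at 18/1 2 hr (adjusted p = 0.0313, limma), *Fosl1* (0.0115, the 1 of 3 in the stricter filter), *Fosl2* (0.00302) and *Junb* (0.00884) at 90/5 5 hr, and *Fosb* in 90/5 5 hr against 18/1 2 hr (0.0236). After Benjamini-Hochberg adjustment of the methods' t-test, *Fos* was not called at 18/1 2 hr (adjusted p = 0.624), 90/5 2 hr (0.101) or 90/5 5 hr (0.108), *Fosb* not at 90/5 2 hr (0.0664) or 90/5 5 hr (0.114), and *Fosl2* (0.0528) and *Fosl1* (0.179) not at 90/5 2 hr. It gained *Junb*, lower at 18/1 5 hr against unstimulated (0.0241), and *Fosl1*, higher at 18/1 5 hr against 2 hr (0.0237). Dimness limits *Junb* and unstimulated *Fos*, and saturation limits *Jund*.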
